A study of Mus musculus with 2 samples.

Results

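The mitochondrial ribosomal protein genes were taken as every gene of the deposited table whose symbol is Mrpl or Mrps followed by digits, with or without a last letter. This rule gave 77 of the 16463 genes listed, of which 48 carried Mrpl names (large subunit) and 29 carried Mrps names (small subunit). Messenger RNA had been sequenced from unstimulated macrophages grown from bone marrow for 5 days in DMEM. The medium held 10% serum and 10% conditioned medium of L929, a fibroblast line used as a source of macrophage colony-stimulating factor. TKO macrophages came from mice labelled as lacking the mir-106a~363 cluster (mir-106a~363-/-) and the mir-106b~25 cluster (mir-106b~25-/-) and as carrying a floxed mir-17~92 cluster (mir-17~92 flox/flox) with Lyz2-Cre. WT macrophages came from mice with Lyz2-Cre alone, so the recombinase was present in both genotypes. Lyz2-Cre puts the recombinase under the lysozyme M locus of myeloid cells, and the mir-17~92 cluster can therefore be lost only where and when that locus is active. All mice were labelled C57BL/6J, and neither their age nor the number of animals behind each library is stated in the labels. There was 1 library per genotype, with totals of 10656465 estimated counts in TKO and 10877917 in WT, so no difference between the genotypes has a replicate check and no test was possible. All intervals below are 95% intervals that cover counting error only. Reads that carry no molecular identifier need not be independent molecules, so even the counting error may be understated.

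Mitochondrial ribosomes sit inside the organelle and translate the few proteins encoded by mitochondrial DNA, which are subunits of the respiratory chain and of ATP synthase. Their RNA comes from the mitochondrial genome, but all of their proteins are encoded in the nucleus, made in the cytosol and imported. Some of these proteins have counterparts in bacterial ribosomes and others are found only in mitochondria. Macrophages use mitochondrial respiration at rest and shift their metabolism when they are activated. None of 13 mitochondrial DNA-encoded genes looked for by symbol was found among the genes of the deposited table, so they could not be analysed.

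The libraries carried the macrophage markers that their labels imply. All 10 genes of a macrophage list passed a minimum of 20 counts in at least 1 library, with summed counts of 124961 in TKO and 127550 in WT. Csf1r, the receptor for macrophage colony-stimulating factor, stood at 893 FPKM (fragments scaled for gene length and depth) in TKO and 975 FPKM in WT. Markers of other cells differed between the libraries: the 9 of 10 fibroblast genes past the minimum summed to 1580 counts in TKO and 5685 in WT, and the 4 of 6 dendritic cell genes past it summed to 1323 in TKO and 547 in WT, sums that include the genes below the minimum. The fibroblast collagen gene Col1a1 had 693 counts in TKO and 2871 in WT and Postn had 91 in TKO and 368 in WT, whereas Lum of the same list had 2 counts in each library. Most of the dendritic cell sum came from Itgax, with 843 counts in TKO and 342 in WT, and Cd24a, with 414 and 177. Zbtb46 of that list went the other way, with 3 counts in TKO and 5 in WT. The part that these marker differences play in the ribosomal protein values was not tested, and in bulk RNA fewer cells of a type and less RNA per cell cannot be told apart.

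All 77 genes passed the minimum of 20 counts. Their counts ran between 71 and 946 in TKO, with a median of 293, and between 68 and 870 in WT, with a median of 266. Per length, the median level was 22.1 FPKM in TKO, with a range of 3.89 to 116, and 20.2 FPKM in WT, with a range of 3.10 to 96.6. The order of the genes was almost the same in both libraries (Spearman rho 0.976 over 77 genes, a description across genes that share the same libraries). For comparison, the 11525 genes past the minimum had a median of 10.9 FPKM in TKO and 11.2 FPKM in WT.

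**Figure D1:**
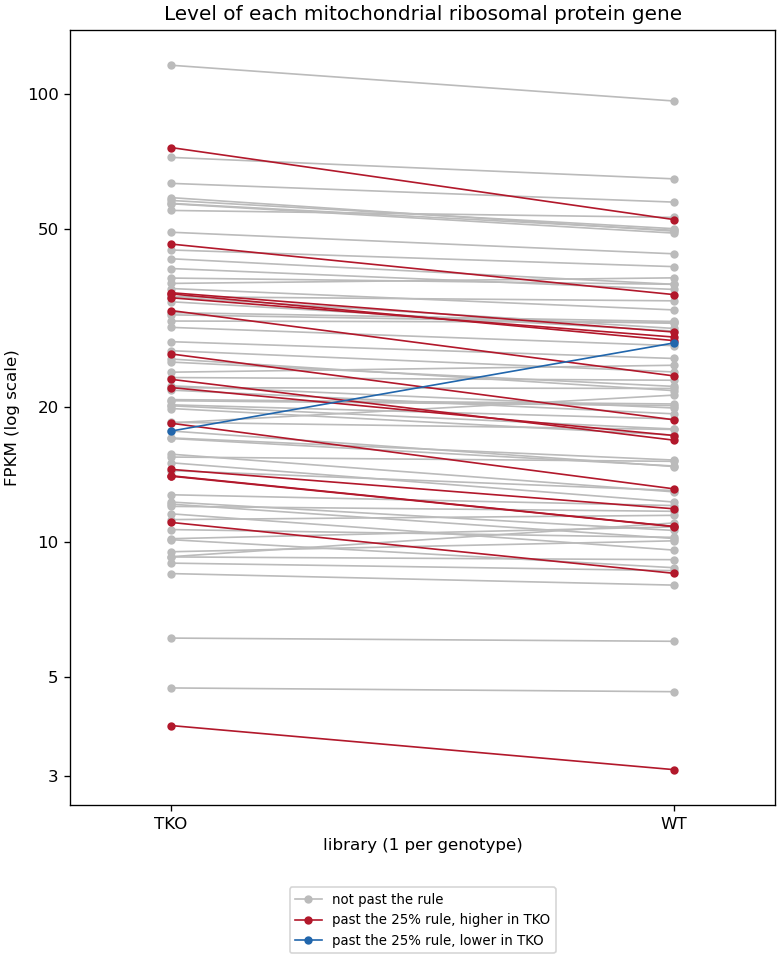
Deposited FPKM (log scale) of each of the 77 genes in TKO (left) and WT (right), with a line joining the values of a gene and colour marking genes for which 1 library was at least 25% above the other with a counting interval that excluded no change. The lines are nearly parallel between 3 and 116 FPKM, and the line of Mrps6, with 17.7 FPKM in TKO and 27.9 FPKM in WT, is the steepest of the few that stand higher on the WT side.

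The most abundant transcript per length was Mrps21, a small subunit protein with a bacterial counterpart, at 116 FPKM in TKO and 96.6 FPKM in WT (487 and 413 counts). Mrpl20 followed with 72.3 FPKM in TKO and 64.7 FPKM in WT, and Mrpl30 with 76.1 FPKM in TKO and 52.5 FPKM in WT. Mrps15 and Mrpl27, the counterpart of a bacterial protein near the peptidyl transferase centre, completed the 5 highest by mean level. At the other end were Mrpl17 with 3.89 FPKM in TKO and 3.10 FPKM in WT, Mrpl57 with 4.72 and 4.63 FPKM, and Mrpl19 with 6.10 and 6.00 FPKM, each pair in the order TKO and WT. Low FPKM went with a long deposited length for Mrpl17 and Mrpl19. Mrpl17 is the longest of the 77 at 6712 bases and Mrpl19 the third longest at 5016 bases, after Mrps25 at 6076 bases. The counts of Mrpl17, 282 in TKO and 229 in WT, were close to the medians of the 77. Mrps21 was the second shortest at 423 bases, between Mrpl52 at 412 and Mrpl33 at 484.

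As a group the genes were slightly higher in TKO, by an amount close to that of other genes of their length. Their counts summed to 23612 in TKO and 21641 in WT, which is 0.222% of all counts in TKO and 0.199% in WT. After scaling for depth this was a 1.14-fold difference (1.12 to 1.16), or 0.19 on the log2 scale. The median log2 ratio of TKO over WT was 0.20, with quartiles of 0.084 and 0.30, against 0.0043 over all 11525 genes. Of the 77 genes, 70 (90.9%) had a log2 ratio above 0, while 50.6% of all genes did. No gene reached 2-fold in either direction with an interval that excluded no change, a rule that 2.43% of all genes met in the higher direction and 2.3% in the lower.

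A 25% rule asked that 1 library be at least 25% above the other, which is 0.32 on the log2 scale, with an interval that excluded no change. By this rule 15 of the 77 genes (19.5%) were higher in TKO and 1 (1.30%) was lower. Over all genes the same rule called 11.5% higher and 12.9% lower. The 15 were Mrpl30, Mrps33, Mrps24, Mrpl32, Mrps34, Mrps14, Mrps22, Mrps36, Mrpl46, Mrpl22, Mrpl14, Mrpl17, Mrpl16, Mrpl34 and Mrpl12, and the gene lower in TKO was Mrps6. In the authors' deposited table, which does not say which test was used, 12 of the 77 genes had an FDR of at most 0.05 and were higher and 1 was lower. That threshold took 15% of all genes past the minimum as higher and 21.8% as lower.

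**Figure D2:**
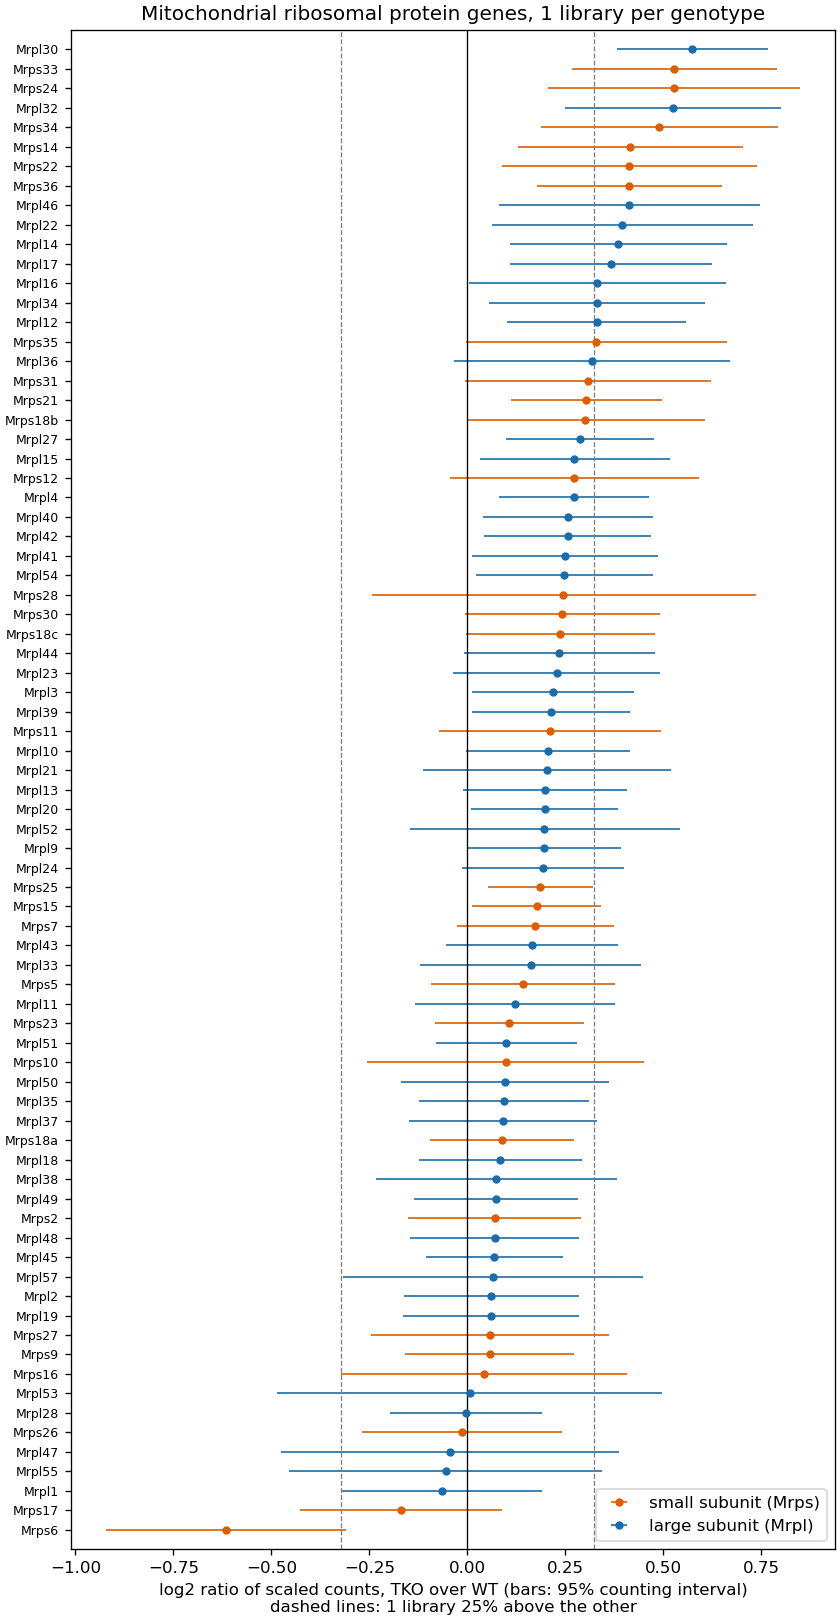
Log2 ratio of scaled counts, TKO over WT, for each of the 77 genes in order of the ratio, with bars for the 95% counting interval, orange for small and blue for large subunit names, and dashed lines where 1 library is 25% above the other. Values run from 0.57 at Mrpl30 to -0.61 at Mrps6, and 70 of the 77 points lie right of 0.

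The ratios of the 77 genes were close to one another. Their standard deviation was 0.18 on the log2 scale, against 0.56 over all genes, and the median half-width of a gene's counting interval was 0.24. The quartiles were 0.084 and 0.30 for the 77 and -0.21 and 0.21 for all genes, which were not matched for counts or length. The interval of 70 genes held 0.19, the ratio of the summed counts. It lay above that value for 4 genes, Mrpl30, Mrps33, Mrps24 and Mrpl32, and below it for 3, Mrpl28, Mrps17 and Mrps6, where the upper bound of Mrpl28 rounds to the same 0.19. Level did not order the ratios: Spearman's rho between mean FPKM and log2 ratio was 0.14 over the 77 genes.

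Mitochondrial ribosomal protein genes are short, and the ratio in these libraries changed with the deposited gene length. Their median length was 1060 bases, with quartiles of 795 and 1536, against 2859 bases for all genes past the minimum. Over all 11525 genes Spearman's rho between length and log2 ratio was -0.45, and over the 77 genes it was -0.21. Below 600 bases, all 7 mitochondrial ribosomal protein genes were above 0 with a median of 0.23, against 87.7% of all 171 genes and a median of 0.26. In the band of 600 to 1000 bases, 22 of 26 were above 0 with a median of 0.22, and 81.8% of all 625 genes were above 0 with the same median of 0.22. Between 1000 and 1500 bases, 20 of 22 were above 0 with a median of 0.19, against 76.4% and 0.17 for 1155 genes. The medians of the group and of all genes lay close together in these short bands. Between 1500 and 2500 bases the median was 0.20 for 17 members, 16 of them above 0, against 0.097 for 2798 genes. At 2500 bases or more it was 0.12 for 5 members, all above 0, against -0.094 for 6776 genes.

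When a lowess trend of the ratio with length, fitted over all genes, was taken away, the group's median became 0.015, with quartiles of -0.049 and 0.14. The trend itself had a median of 0.19 at the lengths of the 77 genes, against their own median ratio of 0.20. After its removal 44 of the 77 (57.1%) were above 0, against 50.1% of all genes. By the 25% rule 6 were then higher and 2 lower, against 9.54% and 8.65% of all genes. The 6 were Mrpl30, Mrps33, Mrps24, Mrps14, Mrpl17 and Mrps25, and the 2 were Mrps17 and Mrps6. With 1 library for each genotype, a trend that belongs to a library and one that belongs to a genotype cannot be told apart.

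**Figure D3:**
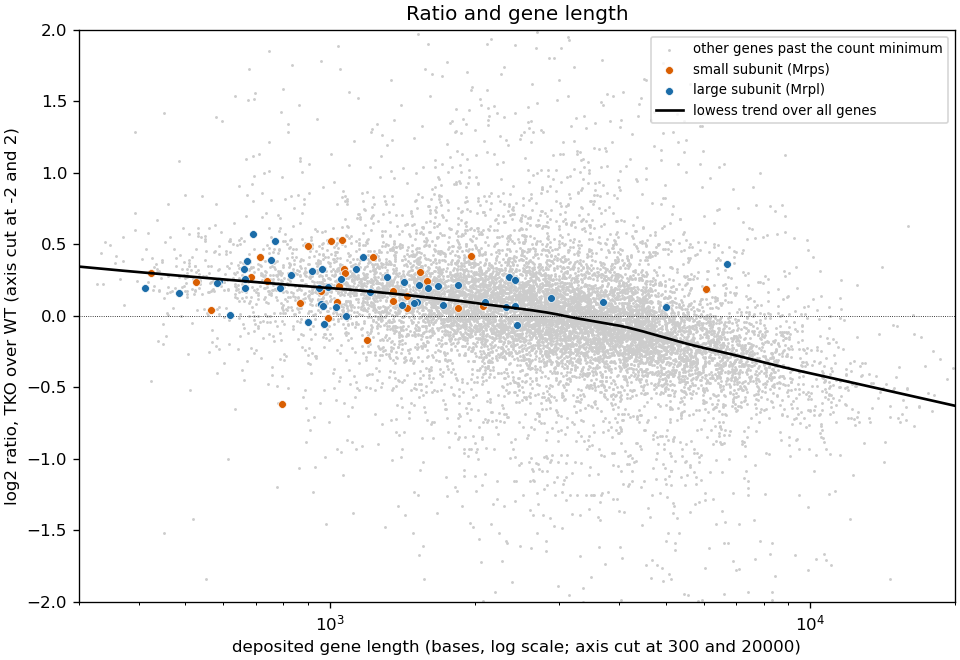
Log2 ratio, TKO over WT, against deposited gene length (log scale) for genes past the count minimum (grey), small subunit genes (orange) and large subunit genes (blue), with the lowess trend over all genes in black. Most of the 77 genes lie along the part of the trend above 0 at short lengths, and Mrps6 lies below it by 0.84.

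The small and large subunit genes had similar medians. The 29 Mrps genes had a median log2 ratio of 0.21, with 26 above 0, 6 past the 25% rule as higher and 1 as lower. The 48 Mrpl genes had a median of 0.20, with 44 above 0, 9 higher and none lower. With the length trend removed both medians were 0.015, with 4 Mrps genes higher and 2 lower and 2 Mrpl genes higher and none lower. Summed counts were 8616 in TKO and 7937 in WT for Mrps genes and 14996 in TKO and 13704 in WT for Mrpl genes. Proteins with a bacterial counterpart (44 genes) had a median of 0.20 and those found only in mitochondria (29 genes) a median of 0.19; 4 genes were placed in neither list. The names do not follow the structure in every case, since the products of Mrps18a and Mrps30 are known to sit in the large subunit in mammals.

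Mrpl30, a large subunit protein with a bacterial counterpart, had the highest ratio of the 77. It had 540 counts in TKO and 380 in WT, a log2 ratio of 0.57 (0.38 to 0.77), which is 1.49-fold (1.30 to 1.70). Its ratio after length removal was 0.33. Among large subunit genes it was followed by Mrpl32, whose product is matured in mitochondria by the m-AAA protease before it joins the ribosome. Mrpl32 had 261 counts in TKO and 190 in WT, a log2 ratio of 0.52 (0.25 to 0.80), and 32.9 and 23.5 FPKM in TKO and WT. Its ratio after length removal, 0.30, did not reach the 25% rule. Mrpl46, found only in mitochondria, had 173 counts in TKO and 136 in WT, and Mrpl22, the counterpart of a bacterial protein that lines the exit tunnel, had 172 in TKO and 137 in WT. Mrpl12, the counterpart of the bacterial stalk protein, had 353 counts in TKO and 294 in WT, a log2 ratio of 0.33 (0.10 to 0.56). The long transcript Mrpl17 had a log2 ratio of 0.37 (0.11 to 0.62), where the trend at its length was -0.26, so that its ratio after length removal, 0.63, was the highest of all.

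Of the 8 highest ratios, 6 belonged to genes with Mrps names, which make up 29 of the 77. That excess depends on the cut at 8, since the 15 genes past the 25% rule as higher held the same 6 and 9 with Mrpl names. Mrps33, found only in mitochondria, had 292 counts in TKO and 212 in WT, a log2 ratio of 0.53 (0.27 to 0.79). Mrps24 had 194 counts in TKO and 141 in WT, also 0.53 (0.21 to 0.85). Both stayed past the 25% rule after length removal, at 0.34 and 0.33. Of the annotated exon bases of Mrps24, 15.4% are shared with Urgcp on the same strand. Mrps34 had 216 counts in TKO and 161 in WT, a log2 ratio of 0.49 (0.19 to 0.79), but 63.4% of its annotated exon bases are shared with Mapk8ip3 on the opposite strand and 37.0% with Nme3 on the same strand. The labels do not say whether the counting used strand, so the reads of these genes may have been divided between them. Mrps14 had 232 counts in TKO and 182 in WT, and Mrps22, mutated in human mitochondrial disease, had 182 in TKO and 143 in WT. Mrps36 had 341 counts in TKO and 268 in WT, a log2 ratio of 0.41 (0.18 to 0.65). Despite its name, the product of Mrps36 is known as a component of the oxoglutarate dehydrogenase complex, and 3 pseudogenes of it are annotated with which reads may be shared.

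Mrps25 is the most counted of the 77 genes, with 946 counts in TKO and 870 in WT, and the second longest. Its log2 ratio was 0.19 (0.052 to 0.32), and 0.41 after length removal. The annotation places 69.8% of its exon bases within exons of Nr2c2, a nuclear receptor gene on the opposite strand, which had 833 counts in TKO and 1049 in WT. Of the 77 genes, 17 share at least 10% of their exon bases with another annotated gene, and the median of the other 60 was 0.20, a comparison chosen after the data had been seen. Those 17 include Mrpl19 (36%), Mrpl43 (33.4%), Mrps18b (30.5%), Mrpl24 (26.3%), Mrps18c (23.2%) and Mrpl46 (12.2%).

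Mrps6 was the one gene past the 25% rule in the lower direction. It encodes a small subunit protein with a bacterial counterpart and lies at chr16:92058270-92112227 on the plus strand (GRCm38, the assembly behind mm10). It had 146 counts in TKO and 234 in WT, a log2 ratio of -0.61 (-0.92 to -0.31), or 1.53-fold higher in WT (1.24 to 1.90). After length removal the ratio was -0.84. The annotation places 305 exon bases of Mrps6 (19.9%) within exons of Gm49711, a gene on the same strand that was not among the genes listed. Slc5a3, the sodium and myo-inositol cotransporter gene, starts 52 bases downstream of the start of Mrps6 on the same strand, and 159 exon bases of Mrps6 (10.4%) are shared with it. Slc5a3 had 121 counts in TKO and 300 in WT, a log2 ratio of -1.24 (-1.56 to -0.94), and -0.81 after length removal. Summed, the pair had 267 counts in TKO and 534 in WT, a log2 ratio of -0.93, a sum that was formed after the data had been seen. How the authors' estimate divided reads between the pair was not tested.

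The other genes at the low end differed little between the libraries before length removal. Mrps17 had 232 counts in TKO and 273 in WT, a log2 ratio of -0.17 (-0.43 to 0.089). Mrpl1 had 243 counts in TKO and 266 in WT, Mrpl55 had 103 in TKO and 112 in WT, and Mrpl47 had 89 in TKO and 96 in WT, with intervals that included no change. Mrps26 and Mrpl28 stood at log2 ratios of -0.014 and -0.0035. Mrpl53 had the fewest TKO counts, 71, with 74 in WT, and 88.0% of its exon bases are also annotated to an unnamed gene on the same strand. Its interval (-0.48 to 0.50) shows that a difference of up to about 1.41-fold was not detectable at this depth.

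The 3 paralogs that carry the name Mrps18 gave values that did not separate. Mrps18a had 494 counts in TKO and 486 in WT, a log2 ratio of 0.089 (-0.094 to 0.27). Mrps18b had 199 counts in TKO and 169 in WT, a log2 ratio of 0.30 (-0.0018 to 0.61), and lies in the MHC region at chr17:35910379-35916389. Mrps18c had 303 counts in TKO and 269 in WT, a log2 ratio of 0.24 (-0.0044 to 0.48). The intervals of the 3 paralogs overlap. Per length, Mrps18b was the lowest, at 17.7 FPKM in TKO and 14.7 FPKM in WT, while Mrps18a stood at 55.0 and 53.1 FPKM and Mrps18c at 57.1 and 49.7 FPKM in TKO and WT.

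Many of these genes start back to back with another gene. Of the 77, 25 (32.5%) have a protein-coding neighbour on the opposite strand whose start lies within 500 bases, against 14.6% of 10780 measured protein-coding genes. Mrpl46 and Mrps11 are such a pair within the group, and 22 others have a measured neighbour outside it. Before length removal those 22 members were all above 0, with a median log2 ratio of 0.22. Of their 22 neighbours 10 were, with a median of -0.052 and a median length of 2291 bases. The neighbours are thus longer than the median of 1060 bases of the 77, and the ratio fell with length over all genes. With length removed not all 22 members stayed above 0: Mrpl2 stood at -0.13 and Mrps27 at -0.048, while Mrpl44 stood at 0.087. How much of the contrast goes with length was not tested. The largest contrast was at Mrpl44, an RNase III-like protein of the large subunit, with 299 counts in TKO and 266 in WT. Its neighbour Wdfy1, with which it shares 126 exon bases on the opposite strand, had 175 counts in TKO and 561 in WT, a log2 ratio of -1.62 (-1.87 to -1.37). Mrpl30 shares its start region with Mitd1, 66 bases away, a gene of the final step of cell division, with 262 counts in TKO and 154 in WT and a log2 ratio of 0.83 (0.54 to 1.13). Mrpl36 and the complex I gene Ndufs6 both had a log2 ratio of 0.32. These 3 pairs were picked for their values.

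Promoters of nuclear genes for mitochondria are known for sites of NRF1, of ETS factors such as the GABP complex, and of YY1. RefSeq promoter windows (GRCm38.p6, 250 bases before the start and 50 after) matched 68 of the 77 genes. The NRF1 letters CGCANGCGC, searched on both strands like the motifs that follow, were found in 18 of the 68 (26.5%), against 16.1% of 9257 measured genes and 7.12% of all 27025 genes with a window. The ETS letters CCGGAAG were in 25 (36.8%), against 21.5% of measured genes, and the YY1 letters AANATGGCG in 10 (14.7%), against 6.40%. The GC box GGGCGG was less frequent, in 34 (50%) against 68.8%, and CCAAT was in 27 (39.7%) against 43.4%. Matches of different motifs may overlap, and the palindromic NRF1 site can match on both strands at 1 place. The sites of the 2 large subunit genes with the highest ratios, of the most abundant gene and of Mrpl44, all written in the direction of the gene with the NRF1 match in capitals, show the letters:
Mrpl30 (chr1:37890384-37890412, plus strand): tgacgccgctGCGCCTGCGctgtcttcta
Mrpl32 (chr13:14613105-14613133, minus strand): ttgacccttgCGCATGCGCaagaggggcc
Mrpl32 (chr13:14613042-14613070, minus strand): gcggacttaaCGCATGCGCtcagcccgcg
Mrps21 (chr3:95871587-95871615, minus strand): ggaaagtccaGCGCCTGCGctcagcaccg
Mrpl44 (chr1:79775974-79776002, plus strand): gaagcacttgCGCACGCGCagtacactag

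The 18 genes with an NRF1 match had a median log2 ratio of 0.22 and the 50 without one a median of 0.18. With and without an ETS match both medians were 0.20. For YY1 they were 0.23 with and 0.19 without a match. After length removal the medians with and without a match were 0.086 and -0.011 for NRF1. They were -0.0052 and 0.020 for ETS and 0.046 and 0.0056 for YY1, and no difference was tested. Of 10 regulators of such genes, 9 passed the minimum, 4 of them above 0, and 1 was past the 25% rule, Gabpb2, a GABP subunit, with 843 counts in TKO and 1179 in WT and a log2 ratio of -0.42. With length removed the ratio of Gabpb2 was -0.066 and none of the 9 was called. Gabpa, the DNA-binding GABP subunit, had 676 counts in TKO and 868 in WT, a log2 ratio of -0.30 (-0.44 to -0.15). With length removed it was -0.14 (-0.29 to 0.0056), an interval that included no change. Nrf1 itself stood at a log2 ratio of -0.058 and Yy1 at 0.0025.

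The deleted clusters encode 4 seed families, and messenger RNAs are bound mainly through sites in the 3' UTR that pair with the seed, bases 2 to 8 of the microRNA. The libraries hold polyadenylated RNA, so the mature microRNAs themselves were not measured. One member of each family, from the mir-17~92 cluster on the plus strand of chromosome 14 and taken from RefSeq, is printed with its seed in capitals:
mmu-miR-17-5p: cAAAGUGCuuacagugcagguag
mmu-miR-18a-5p: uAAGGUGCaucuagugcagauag
mmu-miR-19a-3p: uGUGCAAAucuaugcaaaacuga
mmu-miR-92a-3p: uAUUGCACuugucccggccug

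Few mitochondrial ribosomal protein genes hold a matching 7-base site, and their 3' UTRs are short, with a median of 387 bases against 1221 for 10769 measured genes. The miR-17 site GCACTTT was found in 7 of the 77 (9.09%), against 14.9% of the measured genes. The miR-18 site GCACCTT was in 6 (7.79% against 9.36%), the miR-19 site TTTGCAC in 4 (5.19% against 13.4%) and the miR-25/92 site GTGCAAT in 3 (3.90% against 7.61%). The 16 genes with any site had a median log2 ratio of 0.15, with 14 above 0, and the 61 with none a median of 0.21, with 56 above 0. After length removal the medians were 8.4e-05 with a site and 0.015 without one. The longest annotated 3' UTR was searched, and for some genes with a site it exceeds the deposited gene length. Mrps17 had 4401 bases of 3' UTR against a length of 1196, and Mrps16 had 2023 against 566. Whether such sites lie in the transcripts that were counted was not tested. Sites of the genes with the highest and lowest ratios in the miR-17 family, and of Mrpl51, which has 2, and Mrpl17, in the miR-19 family, are shown in the direction of the gene with the site in capitals:
Mrps24 (miR-17): aaagtGCACTTTtctccag
Mrpl51 (miR-17): tattgctgGCACTTTctgacac
Mrpl51 (miR-17): cctctgctGCACTTTgcttttg
Mrpl1 (miR-17): tgcaacagGCACTTTaccatgg
Mrpl17 (miR-19): cgatcctcTTTGCACagaagat

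Mrps24 and Mrpl17 are among the 15 genes higher in TKO, whereas Mrpl51, with 516 counts in TKO and 504 in WT, had a log2 ratio of 0.10 (-0.080 to 0.28), and Mrpl1 had -0.065 (-0.32 to 0.19). None of the 77 genes lies on the X chromosome, where mir-106a~363 is. The nearest to mir-106b~25 on chromosome 5 was Mrps17 at 8.45 megabases, and the nearest to mir-17~92 on chromosome 14 was Mrpl57 at 57.2 megabases.

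Other genes of mitochondrial translation were examined from lists written from general knowledge. Subunit genes that carry other names (6 genes) had a median log2 ratio of 0.27, with 5 above 0 and 2 past the 25% rule as higher. These 2 were Chchd1, with 168 counts in TKO and 122 in WT, and Aurkaip1, with 618 in TKO and 499 in WT. Dap3, a GTP-binding small subunit protein, had 569 counts in TKO and 510 in WT, a log2 ratio of 0.22. Ict1, a peptide release factor built into the large subunit, had 200 counts in TKO and 168 in WT. After length removal the median of the 6 genes was 0.15, with quartiles of 0.090 and 0.26, against 0.015 for the 77, a difference that was not tested, and 1 of the 6 was past the 25% rule as higher.

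Ribosome assembly factors were less uniform, but their levels were lower, with medians of 6.4 FPKM in TKO and 5.7 FPKM in WT. Lower counts widen the counting error, and its part in their spread was not tested. Of 24, 16 were above 0 with a median of 0.13, 2 were past the 25% rule as higher and none as lower. The 2 were Mettl17, with 108 counts in TKO and 84 in WT, and Ngrn, with 157 in TKO and 126 in WT. Tfb1m, which methylates the small subunit RNA, had 56 counts in TKO and 77 in WT, a log2 ratio of -0.39 (-0.92 to 0.12). The most abundant, Rbfa, a small subunit maturation factor, stood at 31.3 FPKM in TKO and 34.9 FPKM in WT, with a log2 ratio of -0.12 (-0.30 to 0.068). Their counts summed to 3889 in TKO and 3965 in WT. With length removed the median of the 24 was -0.0085, with none higher and 1 lower. Among 15 translation factors the median was 0.10, with 10 above 0, 2 higher and 1 lower, and with length removed it was 0.013, with 3 higher and 1 lower. Oxa1l, the inner membrane insertase to which the ribosome docks, had 949 counts in TKO and 725 in WT, a log2 ratio of 0.45 (0.31 to 0.60), and 0.41 after length removal. Slirp, which stabilises mitochondrial messenger RNA, had 147 counts in TKO and 116 in WT. Taco1, a translational activator of a cytochrome oxidase subunit, was lower, with 72 counts in TKO and 107 in WT and a log2 ratio of -0.51 (-0.96 to -0.062). Tufm, the elongation factor and the most abundant of the list, had 756 counts in TKO and 736 in WT. Of 6 genes of mitochondrial transcription, none was past the 25% rule. Mterf1a, of the mitochondrial transcription termination factor family, had 34 counts in TKO and 23 in WT, with an interval that included no change. Polrmt, the RNA polymerase, had a log2 ratio of -0.033 and Tfam, the packaging factor of mitochondrial DNA, 0.040.

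The sets most like the mitochondrial ribosomal proteins, which are also short, gave similar medians. Subunits of the respiratory chain and ATP synthase had a median log2 ratio of 0.23, with 66 of 75 above 0, and cytosolic ribosomal proteins had 0.18, with 74 of 80 above 0. Their median lengths were 707 and 706 bases, against 1060 for the mitochondrial ribosomal proteins. After length removal the medians were 0.013 for the respiratory subunits and -0.039 for the cytosolic ribosomal proteins. By the 25% rule, 19 respiratory subunit genes were higher and none lower, and 9 cytosolic ribosomal protein genes were higher and 1 lower. With length removed these counts became 1 higher and 3 lower for the respiratory subunits and 1 higher and 2 lower for the cytosolic ribosomal proteins. No difference between the sets was tested, and the quartiles of the 3 sets overlap both before and after length removal.

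**Figure D4:**
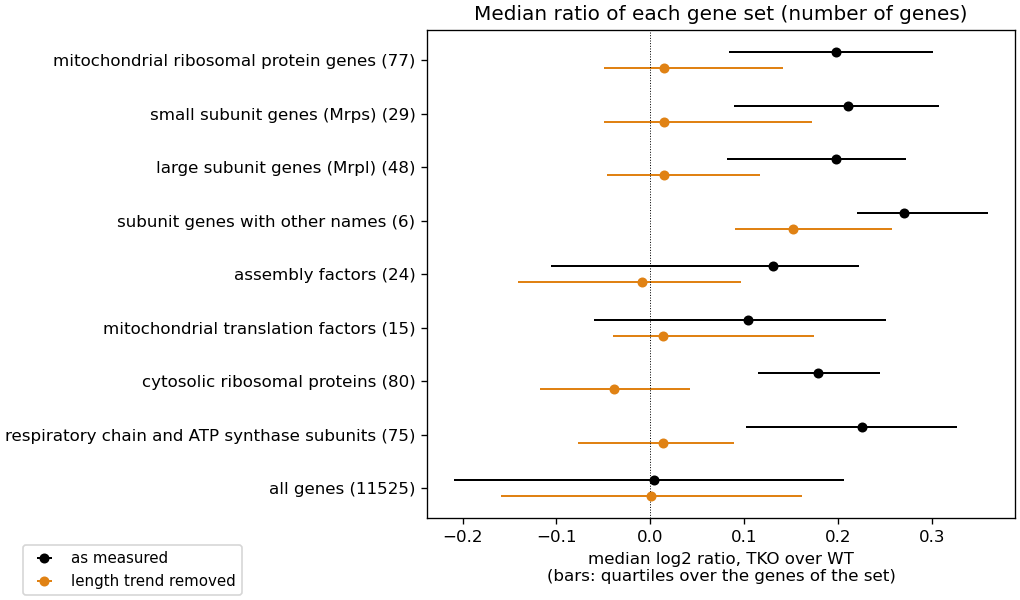
Median log2 ratio, TKO over WT, of each gene set past the count minimum (number of genes in brackets), as measured (black) and with the length trend removed (orange), with bars for the quartiles over the genes. The 3 sets of short genes lie between 0.18 and 0.23 as measured and between -0.039 and 0.015 after removal.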

How the data were processed

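The deposited table lists 16463 genes for 1 TKO and 1 WT library, with 0 unmatched columns. The submitters' processing notes name RSEM 1.2.12, HISAT2 2.0.4 and Bowtie2 2.2.5, without roles, and mm10 as the build. Expected counts in the deposited table are RSEM-style estimates that need not be whole: 20.8% of the members' values in TKO and 19.5% in WT were not whole. FPKM, the unit the authors deposited, is scaled for gene length and depth. The authors' deposited log2 ratio is that of the FPKM values. The test behind the authors' deposited p-value remains unstated, and it was not used. The authors' deposited FDR was treated as a score, because some values exceed 1. The deposited gene length is in bases.

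Rounded counts were scaled by TMM (edgeR 4.0.16, R 4.3.3), with factors of 0.988 for TKO and 1.01 for WT. The log2 ratio of TKO over WT had an exact conditional binomial (Clopper-Pearson) 95% interval, and a count of 0 was replaced by 3. Genes with fewer than 20 counts in both libraries were left out. Trends used lowess with a span of 0.3 on log2 length. No test was run, for want of replicates.

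Coordinates, exon overlaps and 3' UTRs (the longest per gene) came from GENCODE M21 on GRCm38. Named were the 8 highest and 8 lowest ratios, the 5 most and 3 least abundant genes, the 3 longest and 3 shortest, and the Mrps18 paralogs. Of the members that share exon bases and of the other lists, only some genes were named. The members, lists and rules were chosen with earlier results of these data known. As alternatives, counts were scaled by library totals or DESeq2 1.42.0 size factors; others were FPKM with and without a pseudocount of 1, other count minimums, thresholds and intervals, other subunit assignments and removal of the length trend.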

Additional observations from a re-analysis of the deposited data

How the results depend on the processing

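The medians, the ratio of the sums and the genes past the 25% rule kept their direction under every alternative that was run. Among the other genes, Mrpl53, with a log2 ratio of 0.0058, turned to -0.030 with library totals, -0.014 with DESeq2 size factors and -0.029 or -0.032 with FPKM, and with the length trend removed 44 genes were above 0 in place of 70. With that trend removed the 25% rule took 8 genes (6 higher and 2 lower) in place of 16 (15 higher and 1 lower), the medians of all 77, of small and of large subunit genes became 0.015, 0.015 and 0.015, and the ratio of the summed counts became 0.049 in place of 0.19. With the wider counting interval the 25% rule took 5 genes, 4 of them higher. A 1.5-fold threshold in place of 2-fold took 1 gene, Mrps6. The median of the 77 was 0.16 with FPKM, both with a pseudocount of 1 and without, and the ratio of the sums was 0.16 with scaling by library totals, settings that moved the median of all genes to -0.031 or -0.032. All 77 genes stayed within their own counting intervals under library totals, DESeq2 size factors and both FPKM settings, and 12 left them when the length trend was removed. Summing Mrps6 with Slc5a3 and leaving out genes that share exon bases (median 0.20) were added after the data had been seen; the sum gave Mrps6 a log2 ratio of -0.93. No paired analysis was possible because each genotype had 1 library, and for the same reason no replicate could be left out. Counting error alone limits a gene of median level to differences of about 0.24 on the log2 scale, and the spread between cultures is unknown.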
